A study of Mus musculus with 64 samples.

Results

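The hippocampus of 3 wild-derived inbred mouse strains was compared with that of 5 classical laboratory strains by bulk RNA sequencing. The wild-derived strains were CAST/EiJ, PWK/PhJ and WSB/EiJ, and the classical strains were C57BL/6J, 129S1/SvImJ, NOD/ShiLtJ, A/J and NZO/HlLtJ. Of the 64 bulk RNA sequencing libraries, the strain named in each label put 24 in the wild-derived class and 40 in the classical class. Every strain had 4 female and 4 male libraries, which made 16 groups of strain and sex. All mice were inbred and the labels name no treatment, allele or transgene. Their ages are not stated in the sources used here. Nothing in the labels says that the libraries of a strain came from separate animals, so a p-value over libraries measures only the spread between these samples, which may be technical.

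Wild-derived strains were bred from mice trapped in the wild, whereas classical strains descend largely from pet and fancy mice and carry genomes that are mostly of Mus musculus domesticus origin. CAST/EiJ stems from Mus musculus castaneus, PWK/PhJ from Mus musculus musculus and WSB/EiJ from Mus musculus domesticus, so the first pair carries many more sequence differences from the classical strains than WSB/EiJ does. Together the 8 strains founded the Collaborative Cross and Diversity Outbred populations, in which expression in the brain is mapped to founder alleles. The hippocampus, a cortical structure of pyramidal and dentate granule neurons, serves memory and the feedback control of stress hormones.

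The libraries held 16607602 to 25930306 counts in the wild-derived class (median 22014630) and 18981914 to 27759221 in the classical class (median 22348907.5). Genes with at least 1 count numbered 19596 to 20597 per wild-derived library (median 20208.5) and 19986 to 20973 per classical library (median 20393.5). Markers of the tissue were present in every strain: the summed level of 9 markers of CA1 pyramidal neurons was 1476 ± 99.3 CPM, the counts scaled to a common library size (SD, n = 24), in the wild-derived and 1264 ± 116 CPM (SD, n = 40) in the classical libraries, and 12 markers of dentate granule neurons summed to 500.0 ± 46.9 and 525 ± 71.5 CPM. Choroid plexus markers, which come from tissue next to the hippocampus, ranged from 24.2 to 4999 CPM in the wild-derived and from 35.4 to 4250 CPM in the classical libraries. Of 12 such markers 1 passed an adjusted p of 0.05 between the classes, and none passed it with a log2 fold change of at least 1. The libraries C57BL/6J male 4, A/J male 2 and 129S1/SvImJ female 1 stood apart from their groups in earlier results of these data, so the main counts are also given without them.

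Pairs of strains were compared first, to place the wild-derived strains among all 8. A gene was called when edgeR's quasi-likelihood test gave a Benjamini-Hochberg adjusted p under 0.05 and a log2 fold change of at least 1 in size, over 17382 genes tested. The 10 pairs of classical strains differed in 661 to 783 genes (median 747). WSB/EiJ differed from the 5 classical strains in 1003 to 1101 genes (median 1056), PWK/PhJ in 1890 to 2025 (median 1963) and CAST/EiJ in 1956 to 2021 (median 1988). The wild-derived strains lay as many genes apart from each other: their 3 pairs gave 1884, 2000 and 2002 genes. The counts for WSB/EiJ lay above those of every classical pair and below those of every pair with CAST/EiJ or PWK/PhJ. No test was made on these counts, because pairs share strains.

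**Figure D1:**
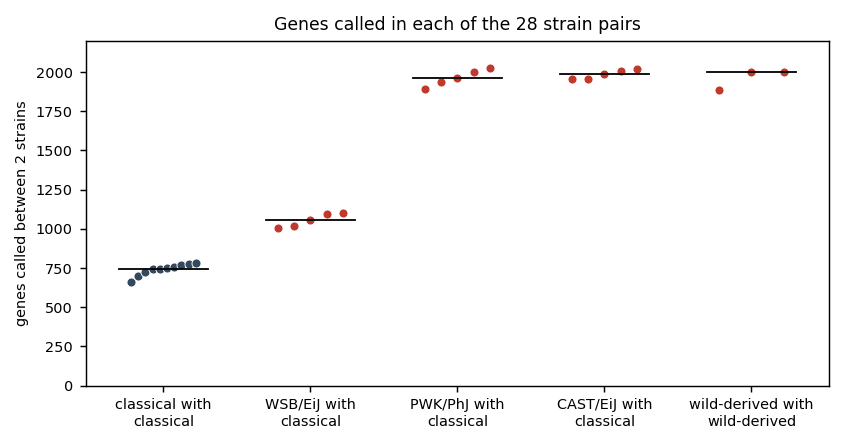
Number of genes called between 2 strains (y axis; edgeR adjusted p under 0.05 and log2 fold change of at least 1) for the 28 strain pairs, grouped by kind of pair (x axis). Points are pairs, blue where both strains are classical and red otherwise, and lines are medians: classical pairs sit at 661 to 783, WSB/EiJ with classical strains at 1003 to 1101 and the other pairs at 1884 to 2025.

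With each strain and sex weighted equally, 967 of 17382 genes (5.56%) were called between the wild-derived and the classical class, 304 of them (1.75%) higher and 663 (3.81%) lower in the wild-derived strains. Lower genes thus made up 68.6% of the calls. Whether reads that differ from the alignment genome were lost could not be checked, and its part in the lower calls was not tested. At any fold 10133 genes (58.3%) passed the adjusted p, 4836 (27.8%) higher and 5297 (30.5%) lower, and the median log2 fold change over all genes was -0.0059. Taken one at a time against the same 40 classical libraries, CAST/EiJ had 724 higher (4.17%) and 1036 lower genes (5.96%), PWK/PhJ had 668 (3.84%) and 1115 (6.41%), and WSB/EiJ had 339 (1.95%) and 480 (2.76%).

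Most of this divergence was not shared. In the median gene, 16.1% of the variance among the 8 strain means lay between the classes, and 264 genes (1.52%) had at least 80% of it there. Of the 17382 genes, 163 (0.938%) were shifted the same way in all 3 wild-derived strains, that is, called against the classical mean in each of the 3 contrasts with the same sign: 51 (0.293%) were higher and 112 (0.644%) lower. These contrasts share the classical libraries, so their overlap is a count and not a test. Without the 3 libraries named above, and with the count filter run anew, the class comparison called 320 genes higher and 677 lower. Then 172 genes were shifted, 158 of them among the 163. All 163 were also called in the class comparison, where they made up 16.9% of the calls. The rule for a shift all but fixes that outcome in advance. The strain with the smallest shift of the 3 was WSB/EiJ for 77 genes, CAST/EiJ for 49 and PWK/PhJ for 37. The division was similar over all 17382 genes tested, with WSB/EiJ for 8040, CAST/EiJ for 4770 and PWK/PhJ for 4572. Just inside the threshold lay Casq2, whose smallest log2 shift was 1.003 in size, and just outside it lay Oscar at 0.99.

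The shifted genes were for the most part weakly expressed and often non-coding. Their median level in the class where they were higher was 1.35 CPM, against 16.4 CPM over all genes tested, and 42.3% of them stayed under 1 CPM, against 15.3% of all genes. Of the 112 lower genes 51 (45.5%) were not protein-coding, 33 of them long intergenic RNAs and 11 antisense RNAs. Of the 51 higher genes 10 (19.6%) were not protein-coding, while the share over all genes tested was 11.1%. Whether the authors' counting used strand was not given, so reads of an antisense RNA and of its partner gene could not be told apart. The median number of detected genes was also lower in the wild-derived class, at 20208.5 against 20393.5. By strain, WSB/EiJ at 20244.5 lay above the classical strain 129S1/SvImJ at 20236.5. The part of detection in the excess of lower calls was not tested.

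A stricter test took the strain, not the library, as the replicate. In limma on the 8 strain means, 87 genes (0.501%) passed an adjusted p of 0.05, 24 (0.138%) higher and 63 (0.362%) lower, and 2630 (15.1%) had an unadjusted p under 0.05. Of the 163 shifted genes 46 passed this test, 10 of 51 higher and 36 of 112 lower. In 129 shifted genes all 3 wild-derived strain means lay outside the range of the 5 classical means, a pattern held by 1674 (9.63%) of all genes, 803 (4.62%) above and 871 (5.01%) below. All 24 wild-derived libraries lay outside the range of all 40 classical libraries in 25 shifted genes, and in 46 (0.265%) of all genes. The shifted genes were chosen from these same values, which favours both patterns and the limma passes. Their shares are therefore descriptions and not support. With 3 strains against 5, an exact two-sided permutation test of a single gene cannot go below p = 0.0357. The count of 87 fell to between 19 and 27 when any 1 classical strain was left out, and was 1088 without WSB/EiJ.

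Several of the widest shifts concerned genes with an almost identical copy elsewhere in the genome. Hmga1 encodes a high-mobility group protein that binds AT-rich DNA and shapes chromatin, and Hmga1b is a copy of it with a single coding exon. Amd1 encodes S-adenosylmethionine decarboxylase, an enzyme of polyamine synthesis, with the copy Amd2. Tpm3 encodes a tropomyosin of the actin cytoskeleton, with the copy Tpm3-rs7. Their coding sequences are shown because a read from one copy can be assigned to the other. In the GENCODE M21 annotation of build GRCm38, the coding sequence of Hmga1 spans 4 exons at chr17:27559569-27562491 on the plus strand, and that of Hmga1b is 1 exon at chr11:120762889-120763212 on the plus strand. Both have the same 324 bases, with no substitution between them, and the stretch from the start codon to base 240 is:
Hmga1 and Hmga1b, bases 1 to 240: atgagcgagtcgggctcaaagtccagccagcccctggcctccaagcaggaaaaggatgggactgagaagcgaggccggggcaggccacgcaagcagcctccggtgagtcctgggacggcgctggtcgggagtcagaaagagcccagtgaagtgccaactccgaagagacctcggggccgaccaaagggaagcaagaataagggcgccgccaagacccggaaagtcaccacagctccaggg

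The coding sequence of Amd1 has 8 exons at chr10:40289329-40301858 on the minus strand and that of Amd2 has 1 exon at chr10:35710555-35711559 on the minus strand. They share 1004 of 1005 bases. Counted from 1 at the first base of the start codon, with the Amd1 base first, the substitution is G796C, in capitals in the stretch from base 766 to base 826:
Amd1: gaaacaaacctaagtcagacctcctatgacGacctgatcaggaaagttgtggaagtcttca
Amd2: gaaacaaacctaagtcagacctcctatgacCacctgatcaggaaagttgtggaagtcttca
The coding sequence of Tpm3 has 8 exons on chromosome 3 and shares 744 of 747 bases with the single coding exon of Tpm3-rs7 on chromosome 14, the substitutions being G72A, G98A and G127A with the Tpm3 base first.

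Hmga1 was lower and Hmga1b higher in all 3 wild-derived strains. Hmga1 stood at 8.64, 13.6 and 18.2 CPM (lowest, median and highest of 24 wild-derived libraries) and at 36.7, 49.6 and 61.7 CPM in the 40 classical libraries, so the classes did not overlap. Its log2 fold change was -1.83 ± 0.04 (SE), and its adjusted p over strains was 0.00046 (limma). Hmga1b stood at 26.5, 30.6 and 39.97 CPM in the wild-derived class and at 0, 0.622 and 9.88 CPM in the classical class, again without overlap, with an adjusted p over strains of 0.091 (limma). The sum of the pair moved less than either gene. The summed level of both genes was 44.7 ± 3.93 CPM (SD, n = 24) in the wild-derived and 50.5 ± 5.76 CPM (SD, n = 40) in the classical class, with ranges of 39.2 to 56.6 and 39.4 to 68.3 CPM that overlapped. Hmga1b held 68.6% to 71.4% of the sum in the wild-derived strain means, 12.5% in A/J, 6.16% in 129S1/SvImJ and 0.333% to 0.845% in the other classical strains.

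The Amd pair followed the same course. Amd2 stood at 31.6, 61.0 and 76.5 CPM in the wild-derived class and at 0.191, 5.23 and 10.2 CPM in the classical class, with no overlap. Its share of the pair was 44.7% in CAST/EiJ, 42.6% in PWK/PhJ and 24.8% in WSB/EiJ, and 0.497% to 5.26% in the classical strains. Amd1 was lower by -0.69 ± 0.02 on the log2 scale, and the sum of the pair was 153 ± 10.3 CPM (SD, n = 24) against 158 ± 16.2 CPM (SD, n = 40). Tpm3-rs7 met the rule for a shift against the classical mean but did not separate the classes. It held 16.7% of the Tpm3 pair in CAST/EiJ, 43.4% in PWK/PhJ and 47.6% in WSB/EiJ, yet also 48.1% in NOD/ShiLtJ and 47.8% in NZO/HlLtJ, and 0.325% to 0.366% in the other classical strains. How the authors' counting divided reads between such copies was not given, and its part in these shifts was not tested.

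**Figure D2:**
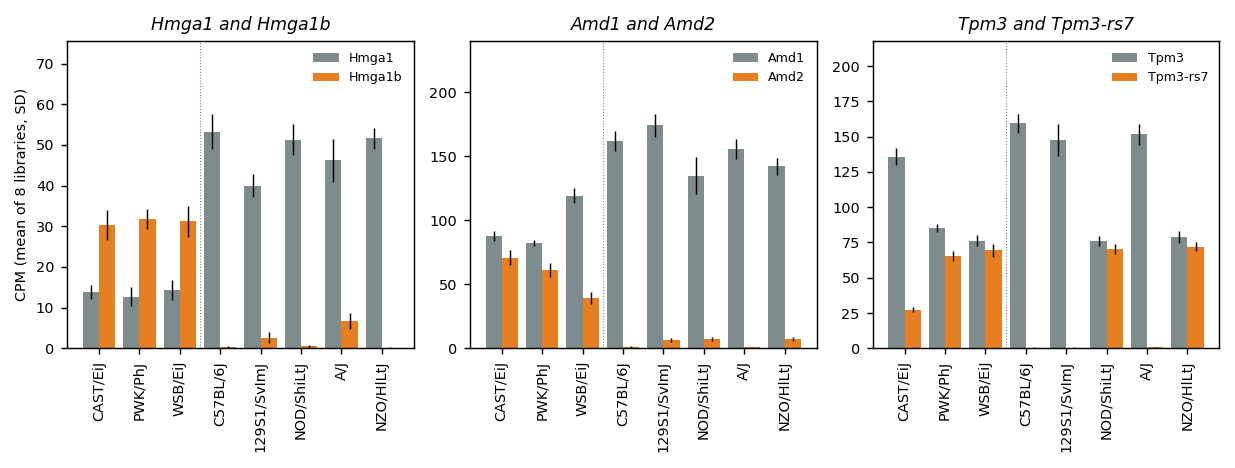
Level in CPM (y axis) of 3 genes, in grey, and of their near-identical copies, in orange, in each strain (x axis), as means of 8 libraries with SD bars; a dotted line parts the wild-derived strains on the left from the classical strains. The copies Hmga1b and Amd2 are high in the 3 wild-derived strains alone, while Tpm3-rs7 is as high in NOD/ShiLtJ and NZO/HlLtJ.

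Among the higher genes, neighbouring members of the Nat8 family on chromosome 6 rose together. The Nat8 family encodes N-acetyltransferases of the endoplasmic reticulum, several of which act on cysteine conjugates in liver and kidney. Its members Nat8f2, Nat8f5 and Nat8f7, were shifted in all 3 strains. Their promoters are shown because the genes moved together. TGGTTTAT, of 8 letters, was among the longest runs shared by their promoter windows, each from 250 bases before to 50 bases after the start in RefSeq's GRCm38.p6. The run cagccaat, in small letters in all 3 stretches below, is as long and was not counted. TGGTTTAT is in capitals within 68 bases, beginning 35, 77 and 99 bases upstream of the start of Nat8f2, Nat8f5 and Nat8f7:
Nat8f2, chr6:85869135-85869202, minus strand: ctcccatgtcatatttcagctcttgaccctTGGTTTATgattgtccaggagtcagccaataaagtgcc
Nat8f5, chr6:85821012-85821079, minus strand: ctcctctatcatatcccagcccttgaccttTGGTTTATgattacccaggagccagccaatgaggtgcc
Nat8f7, chr6:85708623-85708690, minus strand: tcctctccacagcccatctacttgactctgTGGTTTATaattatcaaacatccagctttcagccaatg
On either strand TGGTTTAT was found in 276 of 32851 windows (0.840%), and in 4 of 8 Nat8 family genes in that table. The match is a description of the reference sequence only.

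Nat8f2 stood at 0.857, 7.06 and 9.27 CPM in the wild-derived class and at 0, 0.168 and 0.550 CPM in the classical class, and the classes did not overlap. Its mean was 8.11 ± 1.28 CPM (SD, n = 8) in CAST/EiJ, 7.68 ± 0.637 CPM in PWK/PhJ and 1.48 ± 0.302 CPM in WSB/EiJ, and its adjusted p over strains was 0.028 (limma). Nat8f7 ranged from 0.722 to 4.32 CPM against 0.150 to 1.20 CPM, and Nat8f5 from 0.790 to 5.12 CPM against 0.0882 to 1.92 CPM, both with overlapping classes. In each of the 3 genes CAST/EiJ had the highest mean and WSB/EiJ the lowest of the wild-derived strains. Relatives in the cluster did not follow: Nat8f3 was lower, with a log2 fold change of -0.90, and Nat8f1 was higher by 0.66 in the class comparison but stood at -0.01 in PWK/PhJ against the classical mean. Reads could be shared between these related genes.

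The alpha protocadherins, cell adhesion proteins of which single neurons express different sets, moved in both directions within their cluster on chromosome 18. Pcdha8 stood at 3.04, 7.44 and 11.98 CPM in the wild-derived class and at 0.0808, 0.609 and 2.06 CPM in the classical class (log2 fold change 3.53 ± 0.12, limma adjusted p 0.0042). Pcdha1 stood at 8.36, 15.97 and 47.4 CPM against 0.715, 2.02 and 4.38 CPM (3.01 ± 0.08, limma adjusted p 0.0042). Pcdha12 took the opposite course, at 2.22, 5.34 and 10.6 CPM against 13.8, 19.7 and 25.1 CPM (-1.91 ± 0.06, limma adjusted p 0.018). In none of these 3 genes did the classes overlap. Pcdha2 was higher by 0.90 on the log2 scale, short of a call, whereas Pcdhac2 differed by -0.09 and did not pass the test. These genes join separate first exons to shared later exons, and how reads of the shared exons were counted was not given.

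Other genes higher in all 3 strains had roles in metabolism and signalling. Hk2, hexokinase 2, the entry enzyme of glycolysis, stood at 9.57, 11.6 and 20.8 CPM against 3.31, 4.91 and 7.80 CPM (log2 fold change 1.24 ± 0.05, limma adjusted p 0.036). Tnfsf13b, which encodes the B cell survival factor BAFF, stood at 2.42, 3.61 and 6.47 CPM against 0.598, 1.15 and 1.70 CPM (1.81 ± 0.06, limma adjusted p 0.015). Aox4, an aldehyde oxidase, stood at 5.40, 6.62 and 9.45 CPM against 0.123, 0.548 and 5.01 CPM. No wild-derived library of these 3 genes overlapped a classical one, though 129S1/SvImJ stood apart from the other classical strains in Aox4, with 4.30 ± 0.605 CPM (SD, n = 8) against 0.301 to 0.636 CPM, and its adjusted p over strains was 0.12 (limma).

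The classes overlapped in Rspo1, an enhancer of Wnt signalling, at 1.76, 6.77 and 12.8 CPM against 0.360, 1.46 and 3.16 CPM (log2 fold change 2.18 ± 0.09, limma adjusted p 0.048). DXBay18, on the X chromosome, stood at 1.02, 2.80 and 4.74 CPM against 0, 0.616 and 2.89 CPM (limma adjusted p 0.019). C4a, a gene of complement component 4 with the close relative C4b, stood at 2.59, 5.25 and 7.18 CPM against 0.310, 1.09 and 3.47 CPM, the highest classical values being those of NOD/ShiLtJ (limma adjusted p 0.14). Reads could be split between such relatives.

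A shift against the classical mean did not always part the classes. Serpina3i, a serine protease inhibitor of a large gene family, averaged 0.767 to 1.71 CPM in the wild-derived strains and 0.0386 to 0.0718 CPM in 4 classical strains, but 2.13 ± 0.387 CPM (SD, n = 8) in NOD/ShiLtJ. Zfp990, a zinc finger gene, averaged 0.741 to 1.65 CPM in the wild-derived strains, 0.00464 CPM in C57BL/6J and 0.0213 CPM in A/J, and 0.999 to 2.59 CPM in the other classical strains. Entpd4b, a copy of a gene for a Golgi nucleotidase, averaged 30.5 to 38.6 CPM in the wild-derived strains and 27.7 to 50.8 CPM in 4 classical strains, with 0.383 CPM in 129S1/SvImJ. Without 129S1/SvImJ the log2 fold change of Entpd4b was 0.09, and without C57BL/6J that of Zfp990 was 0.89, so both lost the call.

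Small but separate shifts also occurred among better expressed genes. Gon7, a subunit of the KEOPS complex that modifies transfer RNAs, stood at 8.26, 9.92 and 11.6 CPM against 3.99, 5.20 and 6.93 CPM (log2 fold change 0.94 ± 0.04, limma adjusted p 0.0046). Zfp239, a zinc finger gene, stood at 45.7, 51.6 and 59.4 CPM against 31.4, 34.9 and 39.2 CPM (0.58 ± 0.02, limma adjusted p 0.0072). In both genes every wild-derived library was above every classical one, while the fold stayed under that required for a call.

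Among the lower genes, Star and Vstm5 showed an even shift. Star encodes the steroidogenic acute regulatory protein, which moves cholesterol into mitochondria for steroid synthesis, and it stood at 1.06, 2.04 and 3.16 CPM in the wild-derived class and at 4.78, 5.89 and 7.55 CPM in the classical class. Its log2 fold change was -1.58 ± 0.06 (SE), with an adjusted p over strains of 0.0024 (limma). Vstm5, a membrane protein of the immunoglobulin superfamily, stood at 1.97, 2.62 and 3.18 CPM against 5.32, 8.20 and 10.2 CPM (-1.60 ± 0.05, limma adjusted p 0.0011). The strains of each class lay close together in both genes, and the classes did not overlap.

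Tpd52l1, a member of the tumour protein D52 family, stood at 5.26, 7.79 and 11.1 CPM against 17.6, 20.9 and 27.3 CPM (log2 fold change -1.43 ± 0.05, limma adjusted p 0.0020). Stom, the membrane scaffold protein stomatin, stood at 1.24, 4.12 and 6.95 CPM against 9.92, 12.5 and 16.6 CPM (-1.64 ± 0.05, limma adjusted p 0.033). Upp2, a uridine phosphorylase of pyrimidine salvage, stood at 5.14, 7.75 and 11.9 CPM against 14.2, 25.9 and 32.1 CPM (-1.61 ± 0.03, limma adjusted p 0.033). None of these classes overlapped. The same held for Gpc2, a cell surface proteoglycan, at 0.385, 0.846 and 1.28 CPM against 1.53, 2.06 and 3.31 CPM, and for Proz, a vitamin K-dependent plasma protein, at 3.91, 5.22 and 6.85 CPM against 8.31, 12.5 and 14.5 CPM. Proz was called in the class comparison (-1.23 ± 0.04) but not in each strain.

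**Figure D3:**
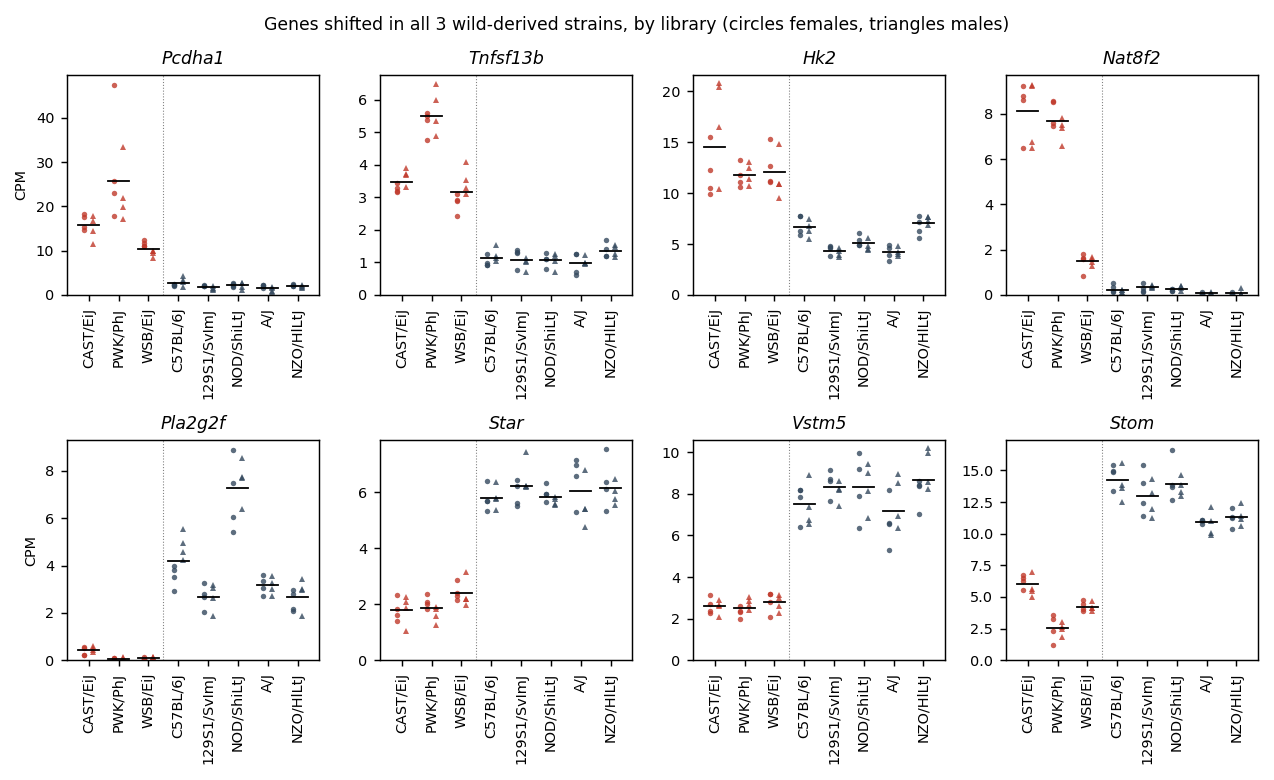
Level in CPM (y axis) in every library of 4 genes that were higher (top) and 4 that were lower (bottom) in all 3 wild-derived strains, by strain (x axis). Circles are females, triangles are males, lines are strain means, and red marks wild-derived and blue classical strains; no red point overlaps the blue points in any of the 8 genes.

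Some lower genes were close to undetected in the wild-derived strains. Fitted fold changes depend there on the prior count, so levels are given. Pla2g2f, a secreted phospholipase A2, stood at 0, 0.111 and 0.598 CPM in the wild-derived class and at 1.86, 3.27 and 8.87 CPM in the classical class, with no overlap and an adjusted p over strains of 0.015 (limma). Myoc, myocilin, a secreted glycoprotein known from glaucoma, stood at 0, 0.0898 and 0.338 CPM against 0.620, 6.02 and 22.6 CPM. The classical strains differed widely in Myoc, from 1.20 ± 0.446 CPM in 129S1/SvImJ to 17.5 ± 3.35 CPM in C57BL/6J (SD, n = 8 each), and its adjusted p over strains was 0.075 (limma).

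Klk6, a kallikrein protease of oligodendrocytes, stood at 0, 0.0213 and 0.248 CPM against 0.184, 0.728 and 3.37 CPM (limma adjusted p 0.043). Tbx1, a T-box transcription factor, stood at 0, 0.0871 and 0.858 CPM against 0.641, 1.31 and 2.24 CPM (limma adjusted p 0.033). Crb1, a polarity protein of the retina, stood at 0, 0.262 and 0.685 CPM against 0.662, 1.31 and 2.38 CPM (limma adjusted p 0.033). The classes of these 3 genes met only at their edges, and at such levels a library held few reads of them.

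Zfp433, a zinc finger gene, stood at 0.0426, 0.880 and 2.30 CPM against 1.53, 4.25 and 5.98 CPM (log2 fold change -2.10 ± 0.17, limma adjusted p 0.00098). Olfr648, an olfactory receptor gene, stood at 0.0413, 0.262 and 1.58 CPM against 1.03, 4.37 and 8.95 CPM (limma adjusted p 0.040), the highest wild-derived values being those of CAST/EiJ. The classes overlapped in both genes. Rbpjl, a transcription factor related to the Notch effector Rbpj, stood at 0.0392, 0.229 and 0.493 CPM against 0.0934, 0.865 and 2.34 CPM (limma adjusted p 0.16). Gmnn, geminin, an inhibitor of DNA replication licensing, averaged 0.413 to 0.509 CPM in the wild-derived strains and 1.72 to 2.37 CPM in 4 classical strains, and NOD/ShiLtJ stood with the wild-derived strains at 0.445 ± 0.149 CPM (SD, n = 8).

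Some shifted genes lay near each other. Taking shifted genes with at most 4 other tested genes between them as a run, 15 runs held 36 of the 163 genes (22.1%). In 8 runs all genes moved in 1 direction and in 7 they moved in both. Runs of at least 3 genes numbered 5: the Nat8f genes, all higher; Zfp990, Zfp981 and Rex2, higher, with Zfp982, lower, on chromosome 4; Pcdha8, higher, with Gm10545 and Pcdha12, lower, on chromosome 18; DXBay18, higher, with Xlr3b and Gm14685, lower, on the X chromosome; and BB557941, higher, with Upp2 and Gm33594, lower, on chromosome 2. How many runs other genes would form was not tested. Of all shifted genes 4 were X-linked and none was on the Y chromosome, while of the 17382 genes tested 576 were X-linked and 10 Y-linked. Positions were those of GRCm38, and the zinc finger, Xlr3 and Nat8f genes belong to families of close relatives.

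Lists of genes for cell types and pathways were then read across the class comparison. Of 539 distinct list members tested, 9 were called higher and 38 lower, while among all genes tested the shares were 1.75% and 3.81%. At any fold 358 members passed the adjusted p, 154 higher and 204 lower. Among all genes tested 58.3% did, 27.8% higher and 30.5% lower. Over strains, limma called 3 list members, Rspo1, Pdyn and Crb1, and 0.501% of all genes tested. No set test was made. In bulk tissue, fewer cells of a type and less RNA per cell cannot be told apart.

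Genes of innate and adaptive immunity gave many of the lower calls among list members. Of 24 antiviral restriction factors tested, 9 were called lower and none higher, and at any fold 17 were lower and 2 higher (median log2 fold change -0.55). Of 16 immunity-related GTPases and guanylate-binding proteins, which attack the vacuoles of intracellular parasites, 6 were called lower and none higher, and at any fold 10 were lower and 3 higher (median -0.55). MHC class I and peptide loading genes gave 4 lower calls of 17 (median -0.23) and MHC class II genes 3 of 9 (median -0.39). At any fold 30.5% of all genes were lower, with a median of -0.0059. None of the members of these 4 lists passed limma over strains, and 1, H2-Q6, was shifted in all 3 strains. The calls of the class II genes Cd74 and H2-Aa were lost without PWK/PhJ (log2 fold changes -0.61 and -0.63). They were also lost without the classical strain NZO/HlLtJ (-0.86 and -0.98), and that of Cd74 without 129S1/SvImJ (-0.97).

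The summed levels of these lists did not part the classes everywhere. For the GTPases and guanylate-binding proteins the sum was 27.7 ± 5.36 CPM in 129S1/SvImJ, as low as in the wild-derived strains at 27.9 to 30.7 CPM, and the highest sums were 48.5 ± 7.27 CPM in C57BL/6J and 43.3 ± 6.49 CPM in NZO/HlLtJ (SD, n = 8 each). For MHC class I, 129S1/SvImJ at 144 ± 20.1 CPM lay within the wild-derived means of 129 to 159.5 CPM (SD, n = 8), and C57BL/6J was highest at 207 ± 24.8 CPM. For the antiviral factors the wild-derived means were 57.4 to 68.7 CPM and the classical means 70.8 to 86.1 CPM, with NZO/HlLtJ and C57BL/6J highest. The sum of the class II list was 19.7 to 26.6 CPM in the wild-derived strains and 23.7 to 25.3 CPM in 4 classical strains, with NZO/HlLtJ at 40.3 ± 5.97 CPM. A further list, of 22 interferon-stimulated genes tested, gave 2 lower calls and none higher. At any fold 12 of them were lower and 5 higher (median log2 fold change -0.23, and 0.07 in WSB/EiJ). Their sum was 161 ± 15.5 CPM (SD, n = 24) in the wild-derived and 155 ± 16.8 CPM (SD, n = 40) in the classical class.

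The strains behind these calls differed from gene to gene. Iigp1, an immunity-related GTPase, was nearly absent from CAST/EiJ, at 0.00534 ± 0.0151 CPM (SD, n = 8), and stood at 0.868 ± 0.298 CPM in PWK/PhJ and 1.35 ± 0.317 CPM in WSB/EiJ, within the classical strain means of 0.643 to 1.997 CPM. Oas1c, of the oligoadenylate synthetase family that senses viral RNA, was low in PWK/PhJ, at 0.0313 ± 0.0419 CPM, with 0.445 CPM in CAST/EiJ and 0.570 CPM in WSB/EiJ. Tgtp1 was lowest in WSB/EiJ, at 0.0115 ± 0.0213 CPM. The call of Iigp1 was lost without CAST/EiJ (log2 fold change -0.19) and that of Oas1c without PWK/PhJ (-0.48), while that of Tgtp1 held when any 1 strain was left out.

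Among MHC genes, H2-D1, a classical class I heavy chain, averaged 4.54 ± 0.634 CPM in WSB/EiJ and 13.5 ± 1.86 CPM in CAST/EiJ (SD, n = 8), while PWK/PhJ, at 32.2 ± 1.19 CPM, lay within the classical means of 28.1 to 37.6 CPM. Without WSB/EiJ the log2 fold change of H2-D1 was -0.62 and the call was lost. H2-Eb1, a class II beta chain, stood at 0.0449, 0.417 and 1.74 CPM against 0.261, 1.44 and 3.90 CPM (log2 fold change -1.76 ± 0.22, limma adjusted p 0.18), and its classes overlapped. H2-Q6, a non-classical class I gene, stood at 0, 0.111 and 0.341 CPM against 0.0451, 0.706 and 2.06 CPM. These families are polymorphic and have close relatives, between which the authors' counting could split reads. In the complement list of 18 genes, C4a and C3 were called higher and C3ar1 lower, and at any fold 5 were higher and 7 lower (median -0.01). C3 averaged 8.12 ± 1.69 CPM in CAST/EiJ and 11.4 ± 1.496 CPM in WSB/EiJ (SD, n = 8). PWK/PhJ, at 1.13 ± 0.499 CPM of C3, lay below the classical means of 1.58 to 3.68 CPM. The call of C3 was lost without WSB/EiJ (log2 fold change 0.39), CAST/EiJ (0.64), C57BL/6J (0.89) or 129S1/SvImJ (0.98).

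Oligodendrocyte genes were lower as a whole, by less than the fold required for a call. All 12 markers tested were lower at any fold (median log2 fold change -0.37; -0.39 in CAST/EiJ, -0.48 in PWK/PhJ and -0.25 in WSB/EiJ), and their summed level was 3654 ± 403 CPM (SD, n = 24) against 4866 ± 838 CPM (SD, n = 40). By strain the sums did not part the classes, with NZO/HlLtJ at 3983 ± 388 CPM below WSB/EiJ at 4076 ± 170 CPM (SD, n = 8 each). Mobp, a myelin protein gene, stood at 285, 358 and 548 CPM against 400, 647 and 871 CPM (-0.64 ± 0.05, limma adjusted p 0.20). The classes overlapped, and the means of NZO/HlLtJ, 457 ± 48.4 CPM, and 129S1/SvImJ, 487 ± 93.2 CPM, lay below that of WSB/EiJ, 502 ± 23.7 CPM (SD, n = 8 each). Mal, another myelin gene, had all 3 wild-derived means (114, 114 and 157 CPM) below all 5 classical means (168 to 216 CPM). On the log2 scale such a separation of strain means held for 2 of the 12 oligodendrocyte markers. Precursors of these cells showed no such direction, with 3 of 10 markers higher and 5 lower (median -0.06).

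Microglial markers were lower in 9 of 12 and higher in none at any fold (median -0.18), with Cx3cr1, the fractalkine receptor, at 31.9, 41.4 and 52.6 CPM against 39.4, 55.2 and 74.1 CPM (log2 fold change -0.39 ± 0.03, limma adjusted p 0.17). The summed level was lowest in a classical strain, 129S1/SvImJ, at 347 ± 18.5 CPM, and was 355 ± 12.5 CPM in WSB/EiJ, 389 ± 30.4 CPM in CAST/EiJ and 429 ± 22.1 CPM in PWK/PhJ, the last above NZO/HlLtJ at 415 ± 14.4 CPM (SD, n = 8 each). Fcrls, another marker of this list, was near 2 CPM in PWK/PhJ and WSB/EiJ but at 29.9 ± 2.97 CPM in CAST/EiJ (SD, n = 8). Astrocyte markers were higher in 7 of 12 and lower in 2 (median 0.11). No marker of microglia, astrocytes or oligodendrocytes passed limma over strains.

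Immediate early genes, which neurons switch on within minutes of activity, were higher in 17 of 19 at any fold and lower in 1, with no call at the required fold (median log2 fold change 0.30; 0.40 in CAST/EiJ, 0.13 in PWK/PhJ and 0.27 in WSB/EiJ). Npas4 stood at 2.40, 7.82 and 16.1 CPM against 1.41, 4.61 and 8.42 CPM (0.88 ± 0.15, limma adjusted p 0.17). Arc stood at 56.4, 113 and 349 CPM against 38.7, 82.7 and 137 CPM (0.58 ± 0.10, limma adjusted p 0.22). Libraries of 1 strain differed widely in these genes. Arc averaged 185 ± 92.9 CPM in CAST/EiJ against 94.3 ± 28.3 CPM in PWK/PhJ, which lay below 129S1/SvImJ at 101 ± 16.9 CPM (SD, n = 8 each). The gene that was lower was Jun, at 73.0, 97.2 and 113 CPM against 99.9, 119 and 138 CPM.

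Markers of CA1 pyramidal neurons were higher in 8 of 9 at any fold (median 0.41). Wfs1, a protein of the endoplasmic reticulum that marks CA1, averaged 476 ± 103 CPM in CAST/EiJ, 305 ± 21.6 CPM in PWK/PhJ and 279 ± 25.8 CPM in WSB/EiJ, all above the classical means of 128 to 259 CPM. Spink8, a protease inhibitor gene, stood at 21.8, 27.2 and 44.1 CPM against 5.42, 18.9 and 25.8 CPM. Of dentate granule markers 7 of 12 were lower and 2 higher (median -0.19), led by Dsp, which encodes desmoplakin, at 2.65 ± 1.83 CPM in CAST/EiJ and 11.8 ± 2.28 CPM in PWK/PhJ but 62.5 ± 10.01 CPM in WSB/EiJ, within the classical means of 39.8 to 69.8 CPM (SD, n = 8). Lct, lactase, went the other way in the same strains, at 139 ± 26.3 CPM in CAST/EiJ, 96.2 ± 9.64 CPM in PWK/PhJ and 31.9 ± 3.74 CPM in WSB/EiJ, where classical means were 24.5 to 50.05 CPM. Without CAST/EiJ the calls of Dsp and Lct were lost (log2 fold changes -0.95 and 0.63). That of Lct was also lost without PWK/PhJ (0.90) or NOD/ShiLtJ (0.93). No CA1 or dentate marker passed limma over strains.

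**Figure D4:**
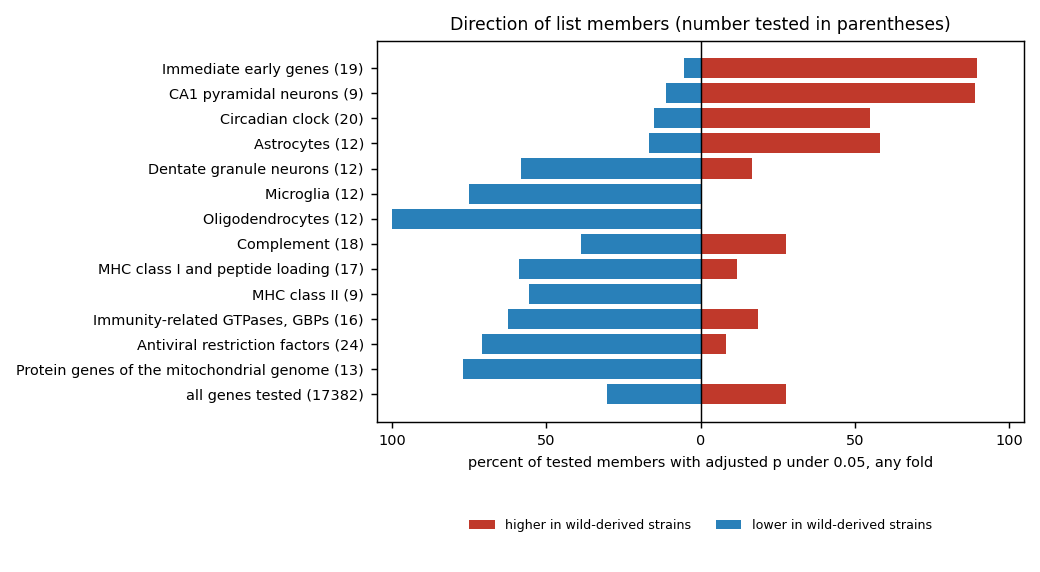
Percent of the tested members of 13 gene lists, and of all genes, that passed an adjusted p of 0.05 at any fold in the wild-derived against classical comparison (x axis), drawn to the right in red where higher and to the left in blue where lower in the wild-derived strains. Immediate early and CA1 genes lie mostly to the right, and oligodendrocyte, microglial, antiviral, GTPase, MHC and mitochondrial genes mostly to the left. Complement genes lie at 27.8% higher and 38.9% lower, and all genes at 27.8% and 30.5%.

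**Figure D5:**
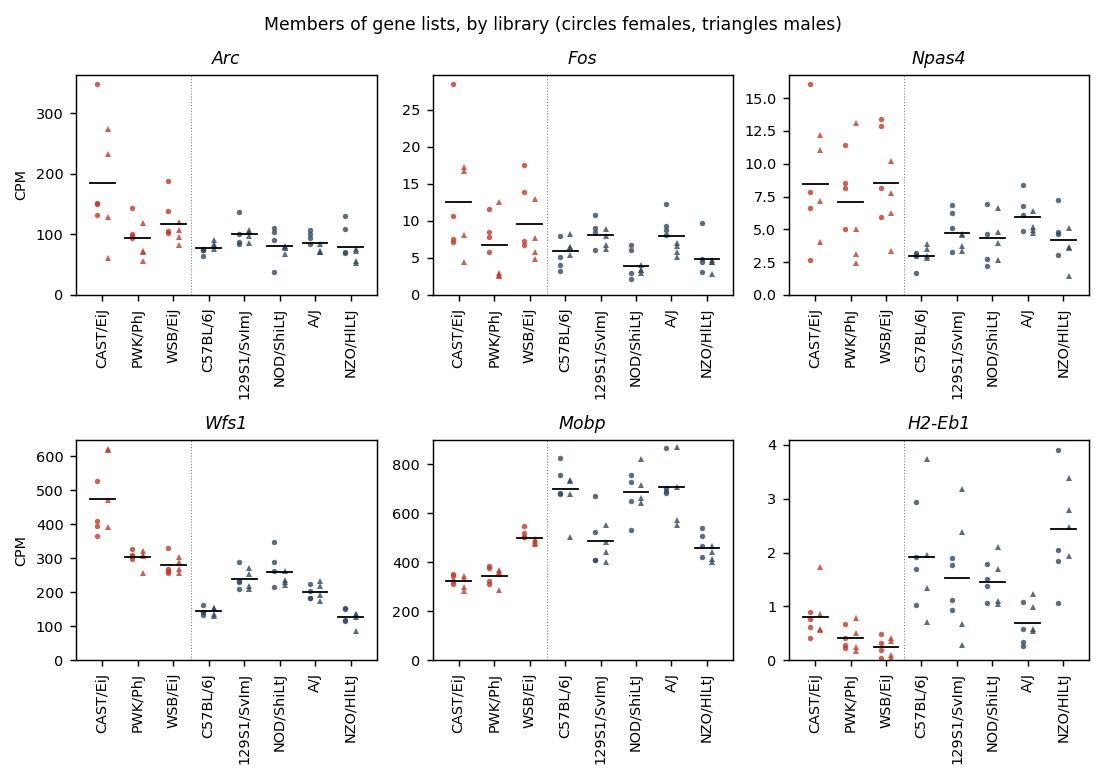
Level in CPM (y axis) of 6 list members in every library, by strain (x axis), with circles for females, triangles for males, lines for strain means, red for wild-derived and blue for classical strains. In all 6 genes, Arc, Fos, Npas4, Wfs1, Mobp and H2-Eb1, the classes overlap.

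Neuropeptide genes showed no common direction: of 39 tested, 15 were higher and 14 lower at any fold (median -0.01). Pdyn, which encodes the opioid precursor prodynorphin of dentate granule neurons, stood apart within this list. It stood at 4.78, 8.16 and 9.33 CPM in the wild-derived class and at 10.1, 14.8 and 22.1 CPM in the classical class, with no overlap (log2 fold change -0.95 ± 0.06, limma adjusted p 0.021). Penk, which encodes the opioid precursor proenkephalin, was called higher (1.07 ± 0.06), at 83.0 ± 4.58 CPM in PWK/PhJ, 48.5 ± 13.2 CPM in CAST/EiJ and 28.03 ± 5.60 CPM in WSB/EiJ (SD, n = 8). WSB/EiJ lay in Penk within the classical means of 17.8 to 28.5 CPM, and the call was lost without PWK/PhJ (0.69) or A/J (0.98). Npy2r, a receptor of neuropeptide Y, was lower (-0.85 ± 0.04), at 17.7, 27.9 and 49.7 CPM against 40.2, 56.1 and 67.5 CPM.

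Genes of the corticosteroid and CRH system were split, with 6 of 18 higher, 6 lower and none called (median 0.01). Crhr1, a receptor of corticotropin-releasing hormone, stood at 3.29, 5.44 and 6.64 CPM against 5.52, 9.15 and 15.4 CPM (-0.75 ± 0.06, limma adjusted p 0.090). The protein genes that mitochondrial DNA carries were lower in 10 of 13 and higher in none at any fold (median -0.28), but the strains disagreed: the median was -0.71 in PWK/PhJ, -0.31 in CAST/EiJ and 0.26 in WSB/EiJ. Their called member mt-Nd3, a subunit of respiratory complex I, averaged 81.6 ± 16.2 CPM in CAST/EiJ, 153 ± 17.4 CPM in PWK/PhJ and 600 ± 62.1 CPM in WSB/EiJ, where classical means were 322 to 590 CPM (SD, n = 8). Its call was lost without CAST/EiJ (log2 fold change -0.52) or PWK/PhJ (-0.97).

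The effect of class differed between the sexes in 1 of 17382 genes (0.00575%), Kbtbd7, whose product belongs to the Kelch and BTB family of ubiquitin ligase adaptors, while 897 genes (5.16%) had an unadjusted p under 0.05. The log2 fold change of Kbtbd7 in females minus that in males was -0.59. This came from WSB/EiJ, where females had 15.2 ± 1.79 CPM and males 47.7 ± 11.4 CPM (SD, n = 4 each), with no overlap, and the difference was -0.05 without that strain, while the means of all other groups of strain and sex were 56.9 to 65.3 CPM. CAST/EiJ and PWK/PhJ showed no such split, with 59.8 and 65.3 CPM in females and 63.9 and 64.7 CPM in males. The sample titles number CAST/EiJ females in a block far from the males, so sex and block cannot be separated in that strain. Without CAST/EiJ the sex difference was again called in 1 gene, Kbtbd7, at -0.83 on the log2 scale. Of the 163 shifted genes none passed the test of a sex difference, and 6 (3.68%) had an unadjusted p under 0.05. In females alone 143 genes were shifted in all 3 strains, 121 of them among the 163, and in males alone 142, with 124 among the 163.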

How the data were processed

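Per the labels' protocols, hippocampal total RNA was purified with TRIzol Plus and DNase and turned into libraries with Illumina's TruSeq kit. For all 64 libraries the authors deposited raw, unnormalized whole-number counts by gene in a single table, named for Ensembl release 105. The submitters' processing notes name the build GRCm39. Aligner, counting tool, use of strand and the strain of the alignment genome are not given in the sources used here. Libraries were grouped by the strain and sex of the labels. Their replicate numbers follow the order of deposition and serve as names alone. The numbers that open the sample titles run in blocks by strain and sex. CAST/EiJ females hold a block far from that of CAST/EiJ males. What these blocks reflect is not stated. A strain, and in CAST/EiJ also sex, therefore cannot be told apart from its block, and an effect of block was not tested. For 14 columns the last part of the name is 1 digit shorter than in the sample title, and each matched 1 title only.

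Symbols, gene types, positions and coding sequences came from GENCODE M21 (GRCm38) by Ensembl identifier, which matched 32146 of 32227 genes (99.7%), and promoters from RefSeq GRCm38.p6, which held 95 of the 163 shifted genes. Genes were filtered with filterByExpr (minimum count 10, minimum total 15), leaving 17382 (53.9%), and scaled by TMM. A quasi-likelihood model with 16 group means was fitted in edgeR 4.0.16 under R 4.3.3 to all libraries, and contrasts weighted each strain and sex equally. Limma 3.58.1 (eBayes with trend) was run on 8 strain means of log2 CPM with a prior count of 2. P-values were Benjamini-Hochberg adjusted over all genes tested, with a threshold of 0.05. DESeq2 1.42.0, other scalings, filters and fold minimums, each sex, and each strain or library left out were tried as alternatives.

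The comparison, its members and the 37 gene lists were chosen with earlier results of these data known. Named genes were, at 1 CPM or more, the 10 higher and 10 lower protein-coding genes with the largest smallest shift, the 6 higher and 6 lower with the widest gap between classes at 10 CPM or more, shifted list members, the leading members of lists, and the 5 genes with the smallest p for a sex difference; Nat8f1, Nat8f3, Nat8f5, Nat8f7, Pcdha2, Pcdhac2, Amd1, Tpm3, Tnfsf13b, Star, Gpc2, Jun, Lefty2, the genes at the threshold and those of the runs were named after their values were seen. Levels are not compared between genes, since CPM does not account for length.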

Additional observations from a re-analysis of the deposited data

Results flagged for a closer look

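The effect of class on Kbtbd7 in females minus that in males, -0.59 on the log2 scale, was the sex difference that passed the adjusted test, and it came from the WSB/EiJ libraries. In 28 genes named in the text, 19 of 224 groups of 8 libraries of a strain held a library far from the others, where chance marks about 5% of groups. In Proz the low libraries were C57BL/6J male 4 at 10.6 CPM (others 11.96 to 13.2), 129S1/SvImJ female 1 at 9.97 CPM (others 12.7 to 14.5) and A/J male 2 at 8.31 CPM (others 10.6 to 12.6). A/J male 2 was high in Hmga1, at 58.5 CPM (others 41.9 to 47.8). WSB/EiJ female 1 was high in Hmga1b, at 39.97 CPM (others 27.7 to 32.4). Amd2 was low in CAST/EiJ male 3, at 57.5 CPM (others 69.4 to 76.5), and in A/J female 3, at 0.191 CPM (others 0.644 to 0.958). NOD/ShiLtJ female 1 was low in Upp2, at 24.6 CPM (others 28.8 to 32.1), and in Myoc, at 3.22 CPM (others 6.27 to 11.0). Zfp433 was low in WSB/EiJ female 3, at 0.135 CPM (others 0.744 to 1.83), and Gmnn in A/J female 2, at 1.83 CPM (others 2.20 to 2.55). Zfp990 was low in CAST/EiJ male 4, at 0.0957 CPM, and in PWK/PhJ male 2, at 1.10 CPM, and was counted in a single C57BL/6J library, male 3, at 0.0371 CPM. At low levels, Nat8f2 was high in NZO/HlLtJ male 2, at 0.303 CPM, and Tbx1 in CAST/EiJ female 4, at 0.213 CPM. Rbpjl was low in C57BL/6J female 4, at 0.0934 CPM, and Pcdha8 in 129S1/SvImJ female 2, at 0.172 CPM. Klk6 was counted in 1 PWK/PhJ library, male 1, at 0.0899 CPM.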

How the results depend on the processing

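The class count of 967 and the shifted count of 163 were 10133 and 1651 with no fold minimum, 270 and 40 with a log2 fold change of at least 2, and 235 and 43 among genes with a mean count of at least 50; with no count filter the class count was 1664. Under DESeq2 they were 1070 and 179 (161 of the 163 shared), and the share of lower class calls ranged from 52.3% with no fold minimum to 74.8% at the higher one. Leaving out 1 library gave 304 to 325 higher and 680 to 704 lower class calls and 163 to 173 shifted genes. The count filter, which depends on the size of the smallest group, was run anew each time. Every such run gave more lower class calls than the 663 of all libraries, so these ranges mix the filter with the library left out. The count of 87 over strains was 55 at a mean count of at least 50, 19 without C57BL/6J, 25 without 129S1/SvImJ, 23 without NOD/ShiLtJ, 22 without A/J, 27 without NZO/HlLtJ and 1088 without WSB/EiJ. The sex difference was called in 2 genes by DESeq2 and in 1 or 2 with 1 library left out (2 without PWK/PhJ male replicate 1). Medians of the pair counts became 4810 (classical pairs), 9108 (wild-derived with classical) and 9160 (wild-derived pairs) with no fold minimum, and 194, 582 and 589 at a mean count of at least 50. The 47 list members called became 358 with no fold minimum. The causes were not tested beyond the change of fold or filter itself. Of 1221 log2 fold changes of 102 named genes under 12 alternatives, 1163 kept direction and side of the threshold. Reversed were Fcrls (0.024 without C57BL/6J, 0.21 without PWK/PhJ, 0.18 without WSB/EiJ), Ifi27l2a (0.52 without PWK/PhJ), Tdo2 (0.22 without PWK/PhJ) and Lefty1 (-0.31 without A/J, -0.38 without NZO/HlLtJ, -0.60 without WSB/EiJ). Of the 74 called among them, 19 lost the class call under some alternative, mostly with a strain left out. Among them were C3 (also 0.96 in females only), Cd74 (-0.97 in females only), Penk (0.98 without A/J) and 2 of 48 shifted genes, Entpd4b and Zfp990. Leaving out a wild-derived strain can hardly undo the class call of a shifted gene, since each strain met the fold alone. Of the 163 shifted genes, 146 were still shifted without C57BL/6J, 144 without 129S1/SvImJ and 143 without NOD/ShiLtJ. Without A/J 146 were, and without NZO/HlLtJ 148. No paired analysis was possible because the labels give no replicate numbers shared between groups. Genes under 1 CPM rest on few reads per library.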

Other observations

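Members of some other lists followed single wild-derived strains. Cwc22, a splicing factor gene listed among known strain variants, averaged 629 ± 55.1 CPM in WSB/EiJ (SD, n = 8), while the means of the other wild-derived strains were 23.6 ± 1.41 and 17.7 ± 0.947 CPM and those of the classical strains 17.8 to 21.4 CPM. Pttg1, which encodes securin, an inhibitor of sister chromatid separation, averaged 22.05 ± 1.93 CPM in C57BL/6J and 0.244 to 1.17 CPM in the 7 other strains, so that its lower call for the wild-derived class (log2 fold change -1.67) came from a classical strain. Lefty2, a Nodal inhibitor that was shifted higher in all 3 wild-derived strains, averaged 16.6 ± 1.51 CPM in PWK/PhJ, 1.72 ± 0.462 CPM in CAST/EiJ and 1.43 ± 0.234 CPM in WSB/EiJ, and 0.0943 to 1.26 CPM in the classical strains. Its relative Lefty1 averaged 0.225 ± 0.379 CPM in PWK/PhJ, 3.25 ± 1.05 CPM in CAST/EiJ and 14.9 ± 1.61 CPM in WSB/EiJ, and was nearly absent from A/J and NZO/HlLtJ, at 0.0622 and 0.0511 CPM. Reads of these relatives could be split between them.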
